A study of Mus musculus with 6 samples.

Results

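The genes followed here are 41 mouse genes that mark the stomach, the intestine or the liver, or that help to set up those tissues: 9 transcription factors, 9 secreted products of the gastric mucosa, 8 goblet cell and mucosal genes, 5 brush border and adhesion genes, 3 hormones and 7 lipid and liver carriers. They were picked as a panel by name, and each was measured by the transcript cluster (the set of probes that reads 1 gene) whose only symbol in the array annotation was that gene. Each of the 41 had 1 such cluster, out of 19938 genes with a single symbol on the array, with Si, sucrase-isomaltase, listed there under its newer symbol Sis. RNA came from MLE15, a lung epithelial line from a tumour of mice that carry the SV40 large T antigen driven by the human surfactant protein C promoter, so all groups carry that transgene. The 3 Nkx2-1-shRNA lines were transduced with lentivirus carrying hairpins against Nkx2-1. The 3 control lines received lentivirus with the empty vector, called the non-silencing control in the methods. Both sets went through puromycin selection, the lines of a group were transduced independently, and each gave 1 Affymetrix Mouse Gene 1.0 ST array. The labels give a time of 48 h while the methods describe stable lines. The spread reported below is therefore between transduced lines of 1 parental cell line, not between animals.

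Lung, stomach, intestine, liver and pancreas all form from the endoderm, and the lung bud and the stomach arise next to each other in the foregut. Each region keeps its own set of transcription factors: Nkx2-1 marks the lung and thyroid fields, Cdx2 the intestine, Pdx1 the pancreas and duodenum, and Onecut factors the liver and pancreas. Mouse lung tumours without Nkx2-1 are known for taking on gastric gene expression, and the comparison asks how these genes stand after a partial knock-down in a lung line.

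Nkx2-1 itself was measured at log2 values of 7.91, 7.98 and 7.83 with Nkx2-1-shRNA against 8.61, 8.61 and 8.59 without. The mean fell to 61.8% of control (log2 fold change -0.69 ± 0.076 SE, n = 3 lines a group, limma adjusted p = 0.00155, between 0.000117 and 0.0550 over the alternative settings). An exact two-sided permutation test gave p = 0.1, the smallest that 3 against 3 lines allow. Across the array 5989 of 35557 transcript clusters (16.8%) passed an adjusted p of 0.05, and 3505 or 3939 did without the first or the second Nkx2-1-shRNA line. Of the 5989 calls, 45.2% were higher in the Nkx2-1-shRNA lines, or 49.9% after a second quantile normalization and 59.5% after median centring. The deposited values hold no detection call, so a background limit was set at 4.35 on the log2 scale, the 95th percentile of the mean signal of 1245 transcript clusters for olfactory, vomeronasal and taste receptors, which a lung line is not thought to express. All 12 lung epithelial markers checked were above this limit in the controls, and 2 of them were higher in the Nkx2-1-shRNA lines, 6 lower and 4 not called. Krt18 and Sftpd were the 2 higher ones (both 0.44), Cdh1, Epcam, Krt8 and Sftpb did not pass, and the greatest fall was that of Sftpc, from 7.73 to 4.08, which is below the limit. Of the markers of other lineages 7 of 10 for fibroblasts and smooth muscle (Col1a1 at 5.81 in the controls and 5.90 in the Nkx2-1-shRNA lines), 3 of 8 for endothelium (Vwf at 5.84 and 6.26) and 3 of 9 for leukocytes (Cd68 at 6.81 and 6.67) were above the limit in both groups. Below that limit in both groups were 6 of the 9 leukocyte markers, such as Ptprc (3.47 in the controls and 3.26 in the Nkx2-1-shRNA lines). The same held for 4 of the 8 endothelial markers, such as Pecam1 (3.57 and 3.65). For fibroblasts and smooth muscle it held for 3 of 10, such as Dcn (3.17 and 3.20). The calls among these lists were Des, Vwf and Csf1r, which were higher, and Tek, which went from 5.77 to 3.77 and below the limit. Csf1r was below the limit in both groups (3.75 in the controls and 4.26 in the Nkx2-1-shRNA lines). The summed levels were 8.10 to 8.25 against 7.98 to 8.12 for fibroblasts and smooth muscle. Those for endothelium were 7.52 to 7.70 against 7.72 to 7.83 and those for leukocytes 7.89 to 7.94 against 7.85 to 8.04. Each is Nkx2-1-shRNA against control on the log2 scale, and the part of these lists in the results below was not tested.

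Of the 41 lineage genes 6 were higher and 3 lower in the Nkx2-1-shRNA lines at an adjusted p under 0.05, and 32 did not pass. The genes that rose were Ctse, Lgals4, Cdx2, Onecut2, Vil1 and Klf5, and those that fell were Gcg, Gkn2 and Dpp4. The 9 calls make 22% of the panel, against 20.5% of all 19938 genes. Split by direction, 14.6% of the panel rose against 10.7% of all genes, and 7.32% fell against 9.88%. The median log2 fold change of the panel was 0.0285, against -0.00704 over all genes. In 16 members (39.0%) the values of the groups did not overlap, against 40.2% of all genes. The shares called and not overlapping were close to those of the array as a whole. Among genes above the background limit in either group, 9 of 24 members were called, against 3965 of 13565 over the array. The study itself asked for an adjusted p under 5e-04 together with a change of more than 0.6 log2 units. The study took that p from a different test, while here the threshold was set on limma's adjusted p. Set this way, 3 members passed (Ctse, Gkn2 and Gcg, 7.32%) against 374 of all 19938 genes (1.88%). These counts are not the study's own, and the list of genes it selected was longer. Fewer cells that express a gene and less RNA of it in every cell cannot be told apart in these bulk samples.

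**Figure D1:**
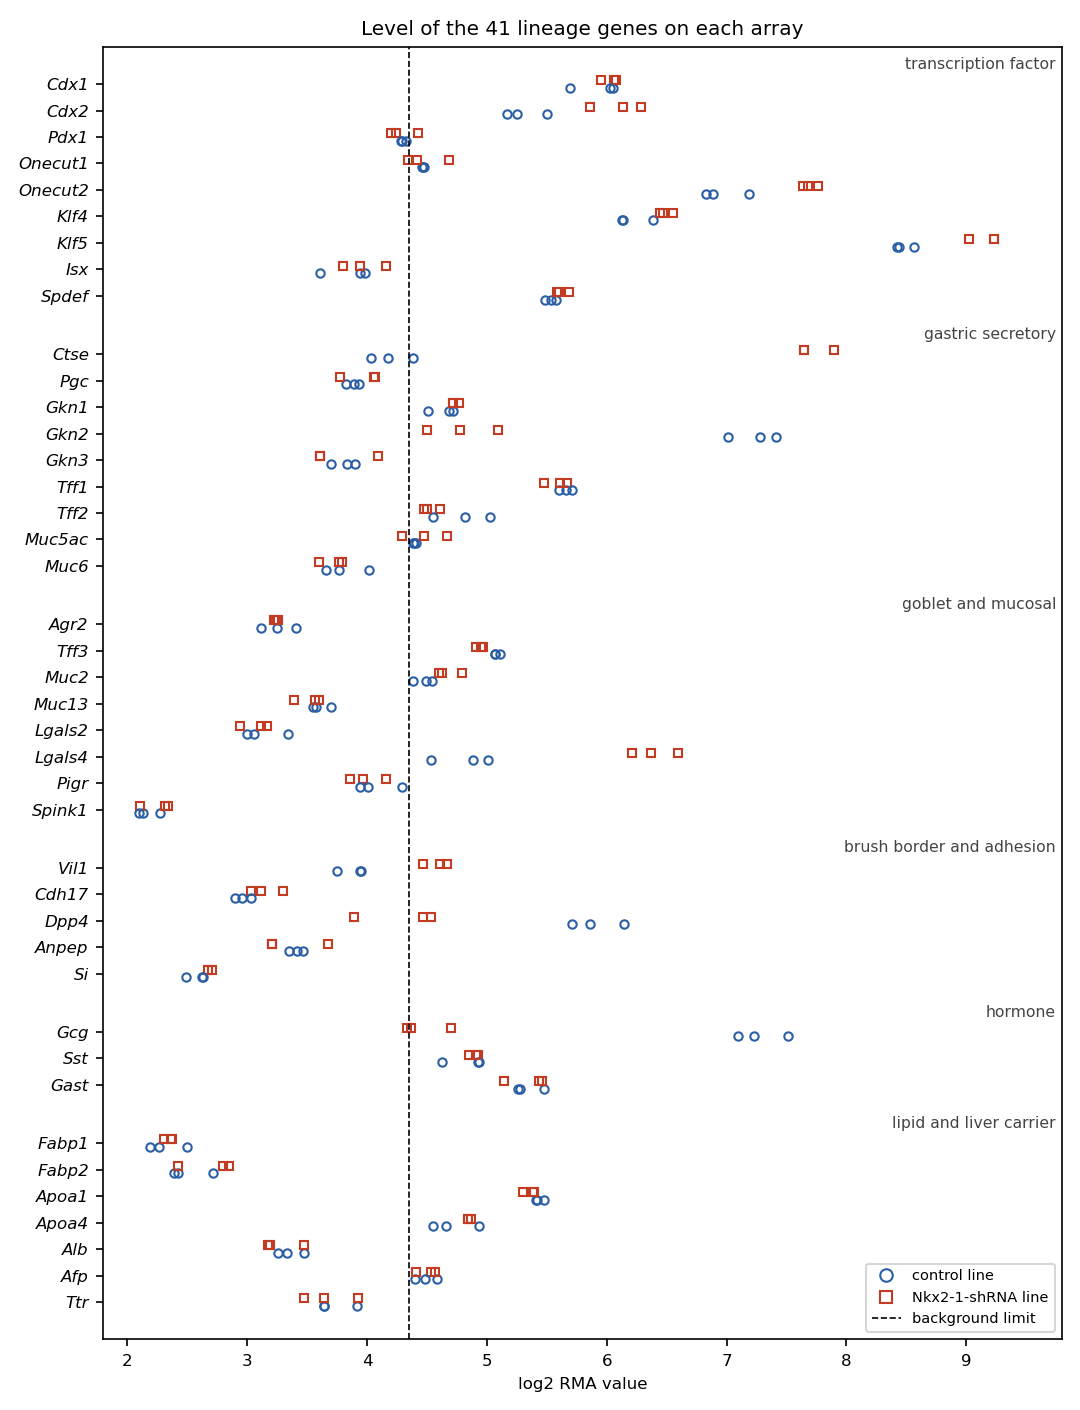
Log2 RMA value of each of the 41 lineage genes, grouped by role, with 1 open circle for each of the 3 control lines and 1 open square for each of the 3 Nkx2-1-shRNA lines. Background ends at the dashed line (4.35), and the squares of Ctse, Lgals4, Gkn2, Gcg and Dpp4 lie apart from the circles by more than 1 log2 unit.

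The largest change among the gastric products was in Ctse, cathepsin E, an intracellular aspartic protease of gastric surface cells. Its log2 value was 7.90, 7.65 and 7.65 with Nkx2-1-shRNA against 4.38, 4.18 and 4.03 in control. Every Nkx2-1-shRNA line was far above every control line, and the spread within either group was small beside the gap. The means were 7.73 ± 0.15 and 4.20 ± 0.18 (SD, n = 3), a rise of 3.53 ± 0.12 (SE) on the log2 scale or 11.6-fold, with a 95% interval of 3.25 to 3.82 and an adjusted p of 4.21e-05. The control mean lay at background, and with the control arrays held at no less than the background limit the rise was at least 10.3-fold.

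Gkn2, a gastrokine secreted by the gastric surface epithelium, moved the other way. It stood at 4.78, 5.10 and 4.50 with Nkx2-1-shRNA against 7.01, 7.28 and 7.41 in control, without overlap. It fell by 2.44 ± 0.17 (SE) on the log2 scale to 18.4% of control (95% interval -2.86 to -2.03, adjusted p = 0.000311), and all 3 Nkx2-1-shRNA arrays remained above the background limit. The other 2 gastrokines, Gkn1 and Gkn3, did not pass the test. Gkn1 was 4.77, 4.72 and 4.72 against 4.51, 4.69 and 4.72, a difference of 0.10 with an interval of -0.11 to 0.30. Gkn3 was below the background limit on every array (difference -0.04, interval -0.39 to 0.31).

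The remaining gastric genes gave no call. They were Pgc, the zymogen of gastricsin, the trefoil peptides Tff1 and Tff2, which are co-secreted with mucus, the surface mucin Muc5ac and the gland mucin Muc6. The largest difference of these was in Tff2, at 4.61, 4.50 and 4.48 with Nkx2-1-shRNA against 4.81, 4.55 and 5.03 in control (-0.27, interval -0.58 to 0.04, adjusted p = 0.228). The lowest control line lay within the range of the Nkx2-1-shRNA lines. Muc5ac stood just above the limit, at 4.48 and 4.39 on average, with a difference of 0.09 (interval -0.17 to 0.34). Pgc and Muc6 were below it in both groups. Of the 9 gastric products 1 rose, 1 fell and 7 did not pass.

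Among the 8 goblet cell and mucosal genes Lgals4 was the only call. Lgals4, or galectin 4, is a lectin of the intestinal epithelium that takes part in apical sorting. Its values were 6.37, 6.60 and 6.21 with Nkx2-1-shRNA against 4.53, 5.01 and 4.89 in control, so that the lowest Nkx2-1-shRNA line exceeded the highest control line by more than 1 log2 unit. The means of 6.39 ± 0.20 and 4.81 ± 0.25 (SD, n = 3) differed by 1.58 ± 0.16 (SE), or 2.99-fold (95% interval 1.21 to 1.95, adjusted p = 0.00101). Some mouse strains carry Lgals6, a near-identical copy of Lgals4, and whether its transcripts add to this signal was not tested.

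The other 7 genes of this group did not pass. They included Agr2, a disulphide isomerase that folds mucins, Muc2, the gel-forming mucin of the intestine, the membrane mucin Muc13 and the trefoil peptide Tff3. The rest were galectin 2 (Lgals2), the immunoglobulin transporter Pigr and the trypsin inhibitor Spink1. Tff3 was 4.96, 4.91 and 4.95 with Nkx2-1-shRNA against 5.11, 5.06 and 5.07 in control. Its groups did not overlap, yet the difference of -0.14 (interval -0.31 to 0.03) gave an adjusted p of 0.251. The methods' t-test, without limma's shared variance, put it at 0.0356, the lowest of a range up to 0.669 over the alternatives. Muc2 lay at 4.80, 4.63 and 4.60 against 4.38, 4.49 and 4.54, also without overlap (0.20, interval -0.01 to 0.42, adjusted p = 0.188). Agr2, Muc13, Lgals2, Pigr and Spink1 were below the background limit on all 6 arrays, with log2 differences between -0.09 and 0.09.

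In the brush border and adhesion group Vil1 and Dpp4 passed in opposite directions. Vil1, or villin, bundles the actin of microvilli. It measured 4.47, 4.61 and 4.67 with Nkx2-1-shRNA against 3.94, 3.75 and 3.95 in control. All 3 control arrays were below the background limit and all 3 Nkx2-1-shRNA arrays a little above it. The measured rise was 0.70 ± 0.096 (SE), or 1.62-fold (95% interval 0.47 to 0.93, adjusted p = 0.00392). Set against the limit instead of the control values, it was at least 1.17-fold.

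Dpp4, a surface peptidase that cleaves incretin hormones, was 3.89, 4.53 and 4.46 with Nkx2-1-shRNA against 6.15, 5.86 and 5.71 in control. No Nkx2-1-shRNA line came near a control line, and the first of them was lower than the other two. Dpp4 fell by 1.61 ± 0.20 (SE) on the log2 scale to 32.8% of control (95% interval -2.08 to -1.14, adjusted p = 0.00246). With the Nkx2-1-shRNA arrays held at no less than the background limit the drop was at least 2.74-fold. Cdh17, the liver-intestine cadherin, Anpep, aminopeptidase N, and Si, which splits dietary sugars, were below the limit on every array, with differences of 0.19, -0.05 and 0.10.

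Gcg encodes proglucagon, the precursor of glucagon in the pancreas and of the glucagon-like peptides in intestinal L cells, and it had the largest drop of the 41 genes. The control lines stood at 7.23, 7.09 and 7.51 and the Nkx2-1-shRNA lines at 4.70, 4.37 and 4.33. The controls were thus well above background, while the Nkx2-1-shRNA lines came down to its edge, 1 of the 3 arrays being under the limit. The means of 7.28 ± 0.21 and 4.47 ± 0.21 (SD, n = 3) gave a fall to 14.2% of control (log2 fold change -2.81 ± 0.15 SE, 95% interval -3.16 to -2.46, adjusted p = 0.000105). Somatostatin (Sst), which inhibits many endocrine cells, and gastrin (Gast), which drives acid secretion, did not pass. Sst was 4.85, 4.92 and 4.91 against 4.93, 4.63 and 4.93 (0.07, interval -0.18 to 0.31). Gast was 5.46, 5.15 and 5.44 against 5.47, 5.26 and 5.28 (0.01, interval -0.26 to 0.28).

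The sequences just before the start of the genes with the largest changes are shown because Nkx2-1 is known to bind a short core, CAAG, and the lines below show where these letters fall. RefSeq promoter windows of the GRCm38.p6 build were used for 29 of the 41 members and for 6 of the 9 that changed. No window of Ctse, Klf5 or Onecut2 was analysed here. The 250 bases before the start lie at chr2:62483654-62483903 on the minus strand for Gcg, at chr2:62412232-62412481 on the minus strand for Dpp4, at chr6:87373115-87373364 on the plus strand for Gkn2 and at chr7:28833544-28833793 on the plus strand for Lgals4. Each is written 5′ to 3′ along the gene, with CAAG or its reverse complement CTTG in capitals.
Gcg: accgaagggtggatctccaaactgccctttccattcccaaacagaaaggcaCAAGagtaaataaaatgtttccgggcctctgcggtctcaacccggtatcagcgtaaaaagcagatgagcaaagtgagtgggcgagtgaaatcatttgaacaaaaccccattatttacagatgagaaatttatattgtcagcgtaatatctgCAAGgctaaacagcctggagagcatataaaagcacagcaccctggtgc
Dpp4: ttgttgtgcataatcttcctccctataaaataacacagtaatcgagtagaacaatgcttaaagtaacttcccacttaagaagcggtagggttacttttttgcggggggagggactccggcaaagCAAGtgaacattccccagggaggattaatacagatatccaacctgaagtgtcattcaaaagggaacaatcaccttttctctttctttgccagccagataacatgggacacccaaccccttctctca
Gkn2: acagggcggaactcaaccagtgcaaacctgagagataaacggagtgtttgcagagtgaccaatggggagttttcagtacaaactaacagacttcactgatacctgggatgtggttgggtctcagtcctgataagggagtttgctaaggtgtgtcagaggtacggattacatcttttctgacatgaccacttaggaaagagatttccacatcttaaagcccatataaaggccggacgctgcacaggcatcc
Lgals4: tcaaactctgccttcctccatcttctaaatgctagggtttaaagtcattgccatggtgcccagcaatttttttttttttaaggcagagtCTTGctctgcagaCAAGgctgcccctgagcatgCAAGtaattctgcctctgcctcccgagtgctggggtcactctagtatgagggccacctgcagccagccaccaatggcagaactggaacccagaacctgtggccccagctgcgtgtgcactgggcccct

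The window of Lgals4, which rose, held 3 matches, and those of Gcg, Dpp4 and Gkn2, which fell, held 2, 1 and 0. Cdx2 had 2 and Vil1 had 1. The letters are common, with at least 1 match in 86.6% of all 32851 RefSeq windows of this length and a median of 2 matches. The longer form CAAGTG or CACTTG, present in 11.6% of windows, occurred once among these 6 genes, 126 bases before the start of Dpp4, where it overlaps the CAAG match. TTTATG or CATAAA, the letters bound by caudal-type factors such as Cdx2, was in none of the 6 windows and in 10.8% of all windows. A match describes letters and not binding, and no match says only that the letters are not in this window.

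Of the 9 transcription factors 3 rose, against 10.7% of all genes, and whether this small group differs from the array was not tested. Each of the 3 rose from a control level above background, with every Nkx2-1-shRNA line above every control line. Over all genes the groups did not overlap in 40.2%. Cdx2, the caudal-type homeobox factor of the intestine, was 5.86, 6.29 and 6.14 with Nkx2-1-shRNA against 5.25, 5.17 and 5.50 in control. The groups did not overlap, and the rise was 0.79 ± 0.14 (SE), or 1.73-fold (95% interval 0.46 to 1.12, adjusted p = 0.0106). At the adjusted p of 0.05 the call of Cdx2 was lost under 2 of the 15 alternative fits, as the methods' t-test gave an adjusted p of 0.0602 and the test for unequal variances 0.0907, with 0.000955 the lowest over the alternatives. Its close relative Cdx1 stayed at 6.06, 6.07 and 5.95 against 5.70, 6.05 and 6.03, with overlapping groups (0.10, interval -0.17 to 0.38).

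Onecut2, a cut-homeobox factor of liver, pancreas and gut, was 7.68, 7.64 and 7.77 with Nkx2-1-shRNA against 6.83, 6.88 and 7.18 in control. It rose by 0.73 ± 0.11 (SE), or 1.66-fold (95% interval 0.46 to 1.00, adjusted p = 0.00623). Its paralog Onecut1 stood near the background limit at means of 4.48 and 4.47. The difference of Onecut1 was 0.01, with an interval of -0.24 to 0.26. For neither the Cdx nor the Onecut pair was the difference between the 2 relatives tested.

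Klf5, a Krüppel-like factor of proliferating intestinal crypts that is also active in airway and alveolar epithelium, was 9.23, 9.02 and 9.23 with Nkx2-1-shRNA against 8.57, 8.44 and 8.42 in control. It rose by 0.69 ± 0.094 (SE), or 1.61-fold (95% interval 0.46 to 0.91, adjusted p = 0.00375). Klf4, which drives goblet cell maturation, was 6.55, 6.47 and 6.45 against 6.13, 6.38 and 6.13, again without overlap. Its difference of 0.27 (interval 0.04 to 0.50) had an adjusted p of 0.107 and between 0.0518 and 0.276 over the alternatives, so it was not called under any of them. Spdef, the ETS factor of goblet cells, differed by 0.09 (interval -0.09 to 0.27). Pdx1 and Isx, a homeobox factor of the intestine, were below the background limit in both groups, at means of 4.29 and 4.30 for Pdx1 and 3.96 and 3.84 for Isx. Under the test for unequal variances the calls of Onecut2 (adjusted p = 0.116, from 0.000517 over the alternatives), Klf5 (0.0511, from 0.000316) and Dpp4 (0.0702, from 5.97e-05) were lost too. The other 5 calls held under all 15 alternative fits at the adjusted p of 0.05, the study's stricter threshold aside, with a highest adjusted p of 0.0142 for Ctse, 0.0303 for Gkn2, 0.0176 for Gcg, 0.0386 for Lgals4 and 0.0426 for Vil1.

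**Figure D2:**
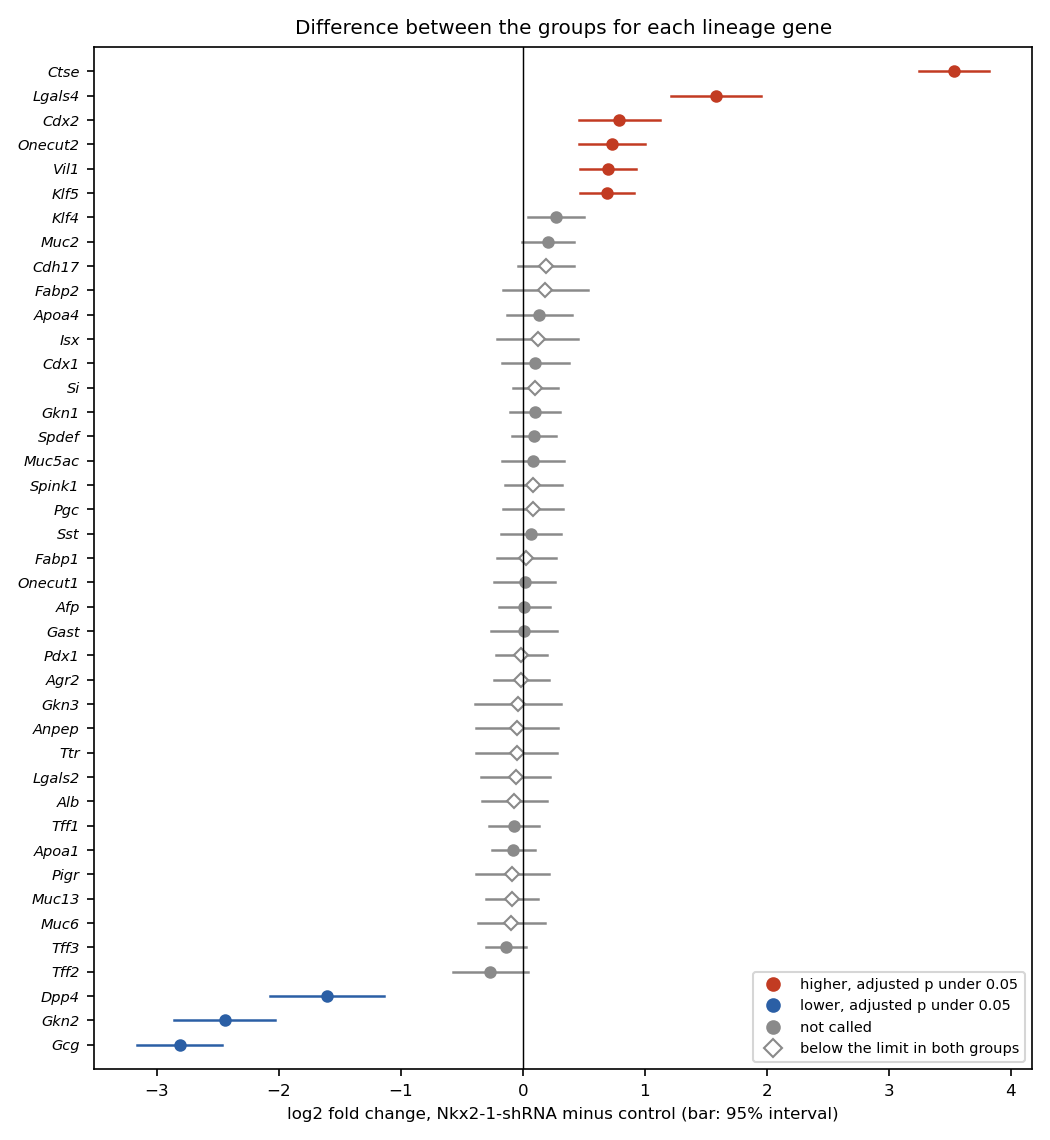
Log2 fold change (Nkx2-1-shRNA minus control) of each lineage gene, ordered by size, with bars for the 95% interval, and colour for the call at an adjusted p under 0.05. Open diamonds mark the 17 genes below the background limit in both groups, and the intervals of the 32 genes that were not called all lie between -0.58 and 0.53.

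None of the 7 lipid and liver carriers passed the test. Albumin (Alb), the main plasma protein made by hepatocytes, was 3.18, 3.19 and 3.48 with Nkx2-1-shRNA against 3.47, 3.26 and 3.33 in control, below the limit on every array. Alpha-fetoprotein (Afp), its fetal counterpart, stood slightly above the limit at 4.53, 4.56 and 4.41 against 4.40, 4.59 and 4.48. The groups overlapped for both, with differences of -0.07 (interval -0.34 to 0.19) for Alb and 0.01 (interval -0.20 to 0.22) for Afp. Transthyretin (Ttr), the thyroid hormone carrier, and the fatty acid binding proteins of liver (Fabp1) and intestine (Fabp2) were below the limit in both groups. Among these Fabp2 had the widest interval, -0.17 to 0.53 around a difference of 0.18. Apoa1 and Apoa4, the apolipoproteins of high density lipoprotein and chylomicrons, were above the limit on all 6 arrays and differed by -0.08 (interval -0.25 to 0.10) and 0.14 (interval -0.13 to 0.40). The 95% intervals of all 7 genes lay between -0.38 and 0.53 log2 units.

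By group means 21 lineage genes were above the limit in both groups and 17 below it in both. Of the 102 array values behind those 17 genes 1 was above the limit, that of Pdx1 in the second Nkx2-1-shRNA line (4.42). Ctse and Vil1 entered from background and Dpp4 left into it, which makes 3 of 41 members (7.32%) across the limit, against 3.18% of all genes. For Ctse 1 of the 3 control arrays was already above the limit, and for Dpp4 2 of the 3 Nkx2-1-shRNA arrays still were. Without the first Nkx2-1-shRNA line the mean of Dpp4 remained above the limit, which leaves 2 crossings. With the limit at the 90th percentile (3.97) Vil1 alone crossed. With it at the 99th (5.15) Ctse and Lgals4 entered and Gkn2, Dpp4 and Gcg left. All 9 called genes were above the limit of 4.35 in at least 1 group.

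Several members lie next to each other in the genome, and the gene order of RefSeq was used to look at their neighbours. Gcg and Dpp4 are adjacent on chromosome 2 with no other measured gene between, and both fell. Of the 10 measured genes around Gcg, 5 on each side, 5 were above the limit in either group, and 3 of these were lower (Dpp4, Gca at -0.82 and Psmd14 at -0.57) and 0 higher. The median log2 fold change of the 5 was -0.57. Over all genes 9.88% were lower, a share that also counts genes below the limit. Of the 13565 genes above the limit in either group, 3965 were called, in either direction. Similar runs lay beside members that were not called, with 4 of 6 such neighbours of Sst and 4 of 7 of Gast higher. Next to Ctse on chromosome 1 lay Rab7b, a small GTPase of late endosomes, which also entered from background (control mean 3.73, Nkx2-1-shRNA mean 6.22, at least 3.67-fold higher against the limit), while Slc26a9 on its far side was lower (-0.82). The median over the 7 neighbours of Ctse above the limit in either group was 0.16. Lgals4 had Ech1, a peroxisomal and mitochondrial enzyme, as its neighbour on chromosome 7 with a rise of 1.11. Over the 9 neighbours of Lgals4 above the limit in either group the median was -0.17.

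The other clusters of related members held at most 1 called gene each. Gkn1, Gkn2 and Gkn3 are adjacent on chromosome 6, and of them Gkn2 alone was called. Tff1, Tff2 and Tff3 on chromosome 17, and Muc6, Muc2 and Muc5ac on chromosome 7, held none. Muc5b, a gel-forming airway mucin that is no member and lies directly beside Muc5ac, was higher by 2.13 on the log2 scale (5.40 to 7.53, adjusted p = 0.000169). Pdx1 and Cdx2 are neighbours on chromosome 5, where Cdx2 rose and Pdx1 was below the limit in both groups. Around Cdx2, Onecut2, Klf5, Vil1 and Gkn2 the median of the neighbours above the limit in either group lay between -0.16 and 0.07.

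**Figure D3:**
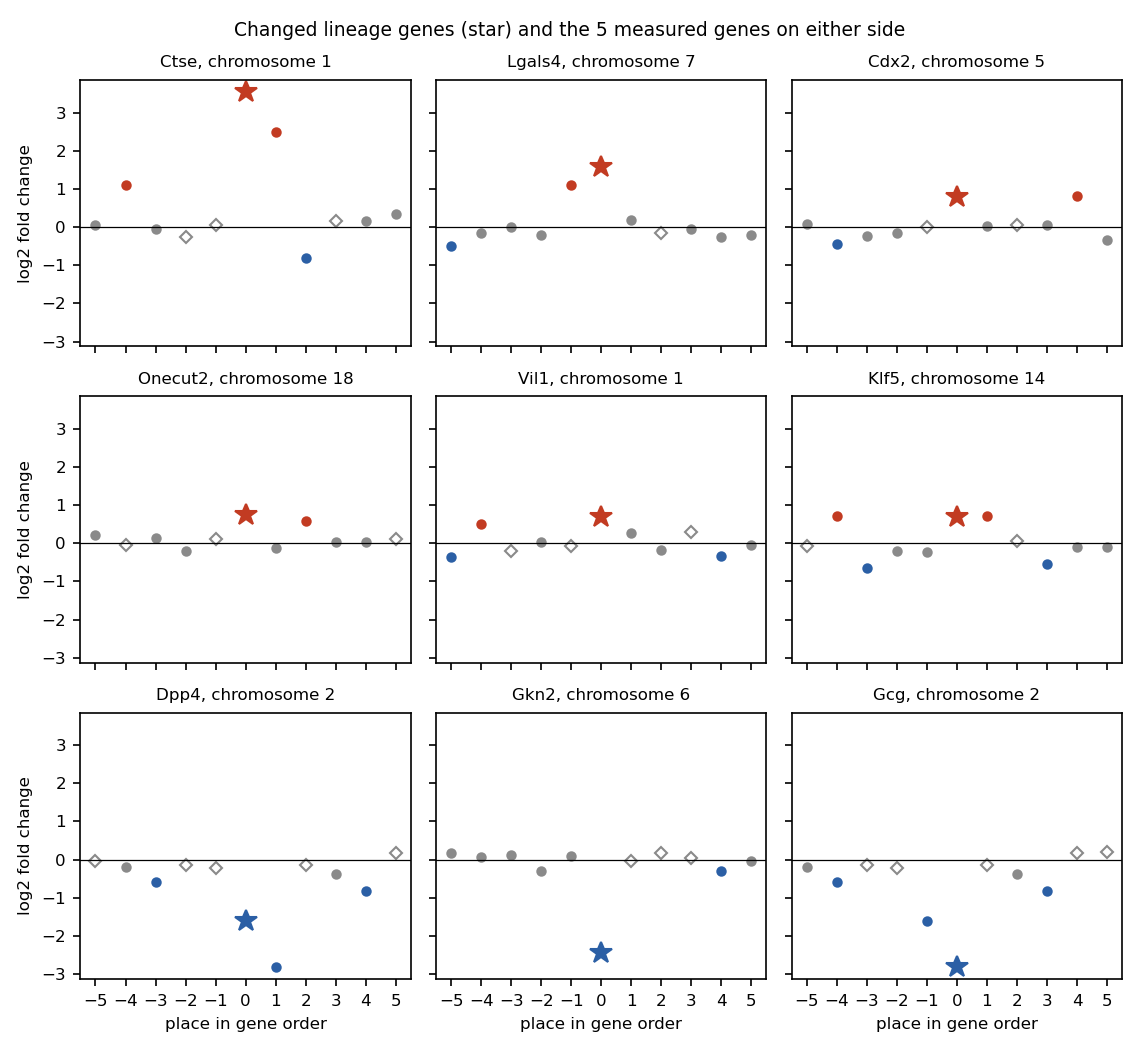
Log2 fold change of each called lineage gene (star, place 0) and of the 5 measured genes on either side in RefSeq gene order, with red for higher, blue for lower, grey for not called and open diamonds for genes below the background limit in both groups. Gcg and Dpp4 appear in each other's panels as adjacent genes that both fell, and Rab7b stands at place 1 beside Ctse.

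The same tissues were looked at through 3 further lists of genes outside the panel. Of 24 measured gut and liver transcription factors 2 were higher and 6 lower, 33.3% of the list against 20.5% of all genes, with a median log2 fold change of -0.00478. The largest changes were in Sox2, a factor of the foregut and its stem cells, which went from a control mean of 8.63 to 5.69 (log2 fold change -2.94, adjusted p = 2.82e-05), and in Hhex, a factor of liver and thyroid buds, from 8.12 to 6.49 (-1.63, adjusted p = 8.45e-05). Elf3, an epithelial ETS factor, rose from 6.06 to 6.93 (0.88, adjusted p = 0.00743), and Foxa1, a pioneer factor of the endoderm, was lower (-0.85, adjusted p = 0.00434). The share of calls that were higher, 25.0%, was 44.4% after a second quantile normalization and 42.9% after median centring. Hnf4a, a main regulator of liver and gut identity singled out after its values were seen, was 5.58 against 5.14 (0.44, interval 0.15 to 0.73, adjusted p = 0.0519) and did not pass.

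Of 44 measured stomach and intestine differentiation genes 8 were higher and 3 lower, 25.0% of the list and near the 20.5% of all genes, with a median log2 fold change of -0.000922. The largest were Anxa8, an annexin, 5.69-fold higher (log2 fold change 2.51, adjusted p = 6.98e-05), Mal, a proteolipid of apical transport (1.55, adjusted p = 0.000189), the intestinal keratin Krt20 (1.08, adjusted p = 0.00246) and the brush border protocadherin Cdhr5 (0.86, adjusted p = 0.00263). Krt20 and Cdhr5 entered from background, and against the limit their rises were at least 1.64-fold and 1.67-fold, with 1 of the 3 control arrays of Cdhr5 already above it. Lgr5, an intestinal stem cell marker (4.42 to 3.87, called lower), and Cldn18, a claudin of stomach and lung (4.42 to 4.31, not called), left into background. Cck, called higher, was below the limit in both groups (3.31 to 3.82). The 30 measured liver secreted and carrier genes gave 0 higher and 5 lower, 16.7% of the list against 20.5% of all genes, with a median of -0.0219, and 16 of the 30 were below the limit in both groups. The clearest was transferrin (Tf), which fell by 1.04 on the log2 scale (adjusted p = 0.00114), followed by Itih2 (-0.61), Fetub (-0.45) and Fgb (-0.39, at least 1.15-fold against the limit). The count of 5 depended on single lines: it was 1, 2 and 2 without Nkx2-1-shRNA line 1, 2 or 3, 3 and 2 without control line 1 or 2, 2 with the replicate block, 3 after either further scaling, and 1 by the methods' t-test and 0 by the test for unequal variances.

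**Figure D4:**
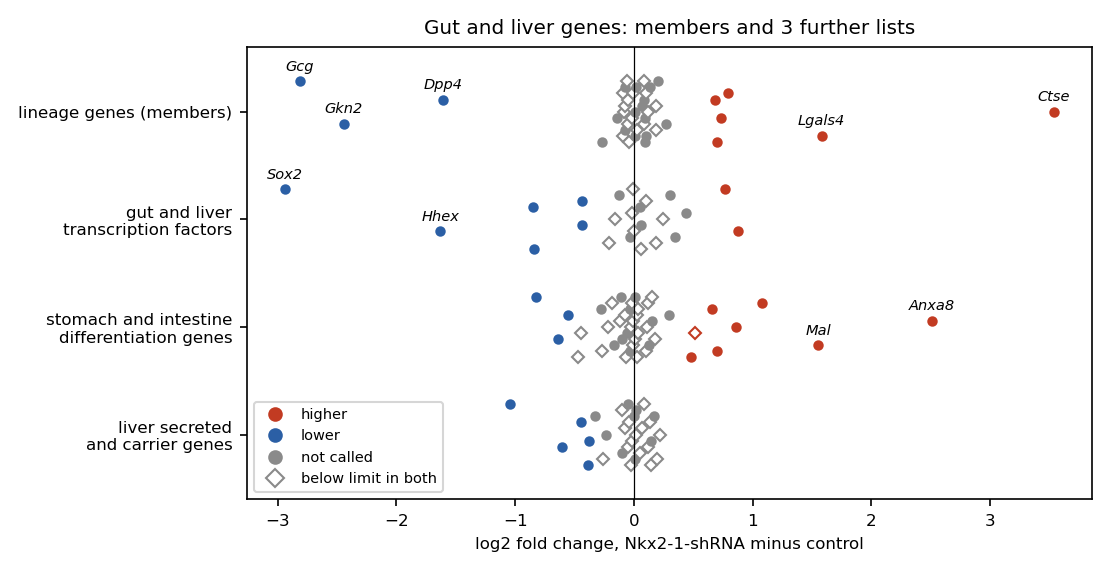
Log2 fold change (Nkx2-1-shRNA minus control) of the 41 lineage genes and of the 24, 44 and 30 measured genes of the 3 further lists, 1 point a gene, with colour for the call and open diamonds for genes below the background limit in both groups. Most points lie near 0 in each list, and of the 30 genes of the liver list 16 are open diamonds.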

How the data were processed

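RNA of 6 MLE15 lines, 3 Nkx2-1-shRNA and 3 control, was hybridised to Affymetrix Mouse Gene 1.0 ST arrays, 1 array a line. The deposited values are log2 signals that the authors obtained in Affymetrix Expression Console 1.1 with Robust Multi-Array Analysis, which subtracts background, sets all arrays to 1 distribution by quantiles and combines the probes of each transcript cluster. The genome build behind the probe sets is not given in the sources used here. All 35557 transcript clusters, from 0.46 to 13.69, were used as deposited. Array medians of these values still differed, at 5.10, 5.10 and 5.14 with Nkx2-1-shRNA against 5.20, 5.18 and 5.21 in control. The array annotation gave 21789 clusters 1 gene symbol, 1621 several and 12147 none, and no gene was named from a cluster with several. For 999 genes with more than 1 cluster the one with the highest mean was used. Precision is limited by the number of arrays, and the median SD within a group was 0.12.

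Groups were compared with limma 3.58.1 (R 4.3.3; lmFit and eBayes, two-sided, no covariate), and p-values were adjusted by Benjamini-Hochberg over all 35557 clusters. On simulated data of that size limma recovered 22%, 72%, 96% and 100% of the 50 clusters changed by each of 0.5, 1, 2 and 4 log2 units, with 6 false calls. Far fewer clusters were changed there than the 5989 called in the data, which makes the adjusted p stricter. The members and all lists were chosen with earlier results of these data known, so no p is given over a list. Every member at an adjusted p under 0.05 is given in full, and of each further list up to 4 called genes with the largest change. Some genes of the further lists were not analysed here. Alternatives were the methods' t-test, a version of it for unequal variances, limma with array weights or with a robust trended prior, further quantile normalization, median centring, both filters (signal above background, 1 symbol), leaving out each line, a replicate block, the study's threshold, the mean of a gene's clusters and other background limits.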

Additional observations from a re-analysis of the deposited data

How the results depend on the processing

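The 9 called members were again 9 under each alternative except the test for unequal variances (5) and the study's threshold (3). By the methods' t-test they were 5 higher and 4 lower, since Cdx2 lost its call and Tff3 gained one. No called result changed direction. The test for unequal variances gave 1592 transcript clusters, 3 transcription factors, 4 stomach and intestine genes, 0 liver genes, and for Nkx2-1 a log2 fold change of -0.69 with an adjusted p of 0.0550. The study's threshold, set on limma's adjusted p, gave 448, 2, 2 and 0, and Nkx2-1, at -0.69 with an adjusted p of 0.00155, did not reach it. The methods' t-test gave 5 transcription factors and 1 liver gene. Liver genes numbered 3 after a second quantile normalization and 3 after median centring. With 1 line left out the counts ranged from 3505 to 4975 for transcript clusters, 6 to 9 for transcription factors, 8 to 10 for stomach and intestine genes and 1 to 4 for liver genes, and the crossings of the background limit were 2 or 3. The crossings were 1 with the limit at the 90th percentile and 5 at the 99th. Of 639 values of single members under the alternatives 12 had another call.

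The labels do not say whether the replicate numbers pair lines of the 2 groups. Deviations of same-numbered arrays correlated at 0.058, 0.14 and -0.034, and 3 of 6 arrays correlated best with their own number. With 3 arrays a group these values cannot settle it. With the replicate block 5044 clusters, 9 members, 6 transcription factors, 11 stomach and intestine genes and 2 liver genes were called, and the adjusted p of Nkx2-1 was 0.0113. With 3 lines a group a change of 0.5 log2 units was recovered in 22% of simulated clusters. Far fewer clusters were changed in that simulation than were called in the data, so the 22% is not the power of this comparison. Small differences among the 32 members that did not pass may have been missed, and signals near the background limit understate a change.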
